A study of Homo sapiens and Mus musculus with 18 samples.

Results

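Early and late mouse gastruloids were compared by bulk RNA-seq, gene by gene, to describe which pluripotency programs were lost and which germ layer programs were gained between these stages. All genes with enough counts in the 4 gastruloid libraries were taken, which gave 14242 of the 29720 genes of the mouse count table. The gastruloids were made from E14Tg2a, a mouse embryonic stem cell (ESC) line that is widely used for differentiation and carries a deletion in the purine salvage gene Hprt, and no transgene was described for either stage. Naive ESCs were aggregated in N2B27, a serum-free medium, and given CHIR99021, a GSK3 inhibitor that activates WNT signalling, during the day before the early collection. Early gastruloids were collected at 72 h, at the end of this pulse, and late gastruloids at 144 h, after culture without CHIR99021. Time since aggregation and time since CHIR99021 withdrawal therefore cannot be told apart. Each stage had 2 replicates, each a pool of many aggregates of the same line, collected in the same experimental batch. The p-values below measure only the spread between such pools. The other mouse groups of the study were naive ESCs kept in 2iLif and EpiLCs, which model the epiblast after implantation. Both groups also had 2 replicates each and were used to place the early level and to estimate the spread.

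A gastruloid is an aggregate of ESCs that breaks symmetry after a WNT pulse, expresses Brachyury (T) at its posterior pole, elongates, and forms derivatives of mesoderm, endoderm and ectoderm without extraembryonic support. Pluripotent cells hold this potential through a network centred on the transcription factors POU5F1 (OCT4), SOX2 and NANOG. The naive form of the network adds factors such as ESRRB, KLF2 and TFCP2L1, and the formative form adds OTX2, FGF5 and the de novo DNA methyltransferases. At gastrulation, NODAL and WNT signals in the primitive streak direct cells to mesoderm and endoderm, and HOX genes are then activated in a 3′ to 5′ order along each cluster.

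The labelled stages were checked against markers. The early markers Pou5f1, Nanog, Sox2, T, Eomes and Mixl1 were over 3 counts in both early libraries in 6 of 6 cases, and 5 of the 6 were called lower in the late stage, Eomes being the exception. Of the late markers Hoxb9, Hoxc9, Meox1, Tbx6, Sox1, Sox17 and Kdr, 6 of 7 were over 3 counts in both late libraries and were called higher there. Tbx6, the T-box factor that defines presomitic mesoderm, was at 0.393 and 0.350 CPM (counts scaled to library size by edgeR's TMM method) in the early libraries and at 0.579 and 0.148 CPM in the late libraries. Msgn1, another defining gene of presomitic mesoderm, had 0 counts in all 4 gastruloid libraries, so defining genes of this tissue were at or near 0 at both collection times.

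Library totals were between 6487157 and 20052505 counts, with the early libraries (20052505 and 11345059) deeper than the late ones (8280237 and 6487157). A gene at 0 could therefore be as high as 0.147 CPM in the deepest gastruloid library and 0.444 CPM in the shallowest, if 3 counts are taken as compatible with a count of 0; such limits cover counting error only. Replicates correlated across genes at r = 0.995 (early) and 0.990 (late) in log2 CPM, and the mitochondrial genome held between 3.25% and 3.65% of the counts of each gastruloid library. In bulk samples, fewer cells of a type and less RNA per cell cannot be told apart, and this holds for every change given here.

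Late gastruloids had 2973 genes called higher, 20.9% of the 14242 genes tested, and 2646 called lower, 18.6%. A gene was called when its Benjamini-Hochberg adjusted p in edgeR's quasi-likelihood test was under 0.05 and its log2 fold change was past 1 in either direction. The median log2 fold change was 2.05 among genes called higher, -1.98 among genes called lower and -0.0095 over all genes. Large changes were more often gains: 386 genes rose by more than 5 on the log2 scale, whereas 106 fell by more than that. The late libraries were shallower, and the part of depth in this difference was not tested. Of the genes called higher, 119 had 0 counts in both early libraries, and of those called lower, 53 had 0 counts in both late libraries. Gene lists for each program are described by their counts against the 20.9% and 18.6% of all genes. The lists were chosen with earlier results of these data known, so these counts do not test a program. A gene near 0 at 1 stage passed the count minimum through the other stage and could be called in 1 direction only. For counts of genes whose libraries did not overlap, the share over all genes was not computed. By edgeR's adjusted p under 0.05 alone, 5593 genes were higher and 5590 lower.

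**Figure D1:**
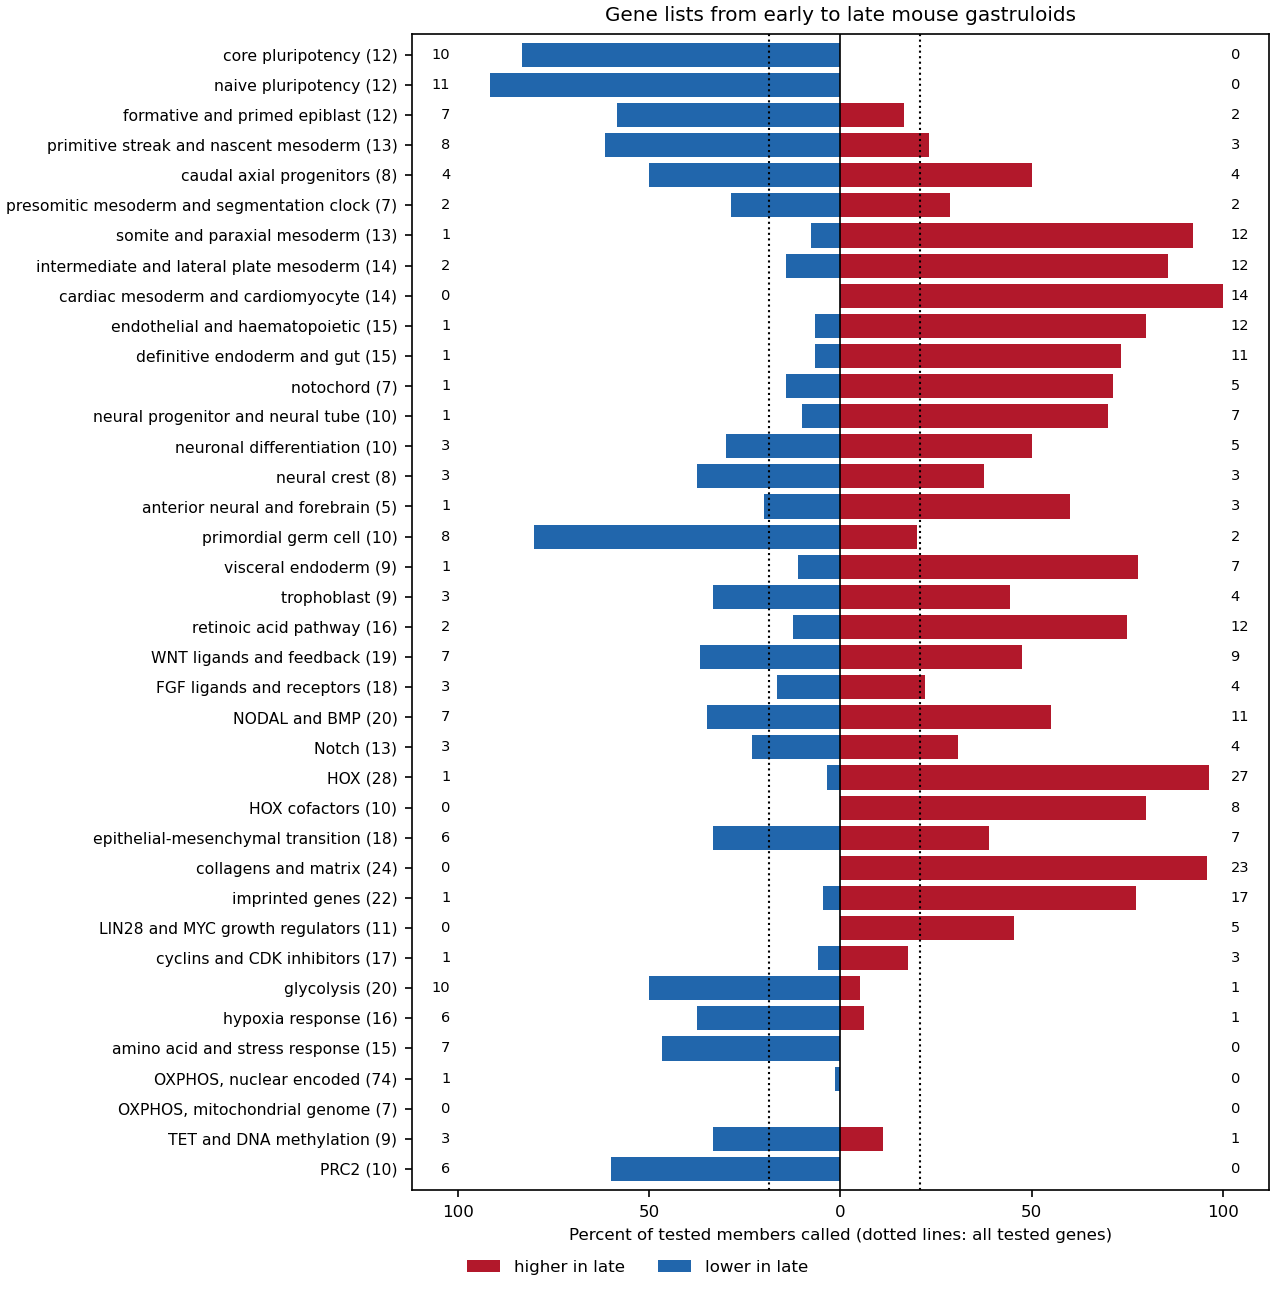
Percent of the tested members of each gene list that were called higher (red, right) or lower (blue, left) in late against early gastruloids, with the number of tested members in brackets and the numbers called at the edges. Dotted lines mark the 20.9% and 18.6% of all tested genes. The pluripotency lists lie mostly to the left, and the somite, lateral plate, cardiac, endothelial, HOX and matrix lists mostly to the right. The streak list lies mostly to the left (61.5% lower, 23.1% higher), and the caudal and presomitic lists had equal shares on both sides.

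The core pluripotency program was lost almost as a whole. Of 12 core genes, 10 fell and 0 rose, with a median log2 fold change of -3.18, and the 10 retained between 5.97% and 14.5% of their early level. Pou5f1 (ENSMUSG00000024406, GRCm39 chr17:35816789-35822274), the OCT4 gene, was at 933 and 906 CPM in the early libraries and at 86.3 and 83.6 CPM in the late libraries. The stages were far apart relative to the replicate spread, at 919 ± 19.1 against 84.9 ± 1.94 CPM (SD, n = 2), a log2 fold change of -3.43 ± 0.06 (SE) with an adjusted p of 3.79e-44 by edgeR. Late gastruloids thus kept 9.24% of the early Pou5f1 level. L1td1, which encodes an RNA-binding protein of pluripotent cells, went from 917 and 941 CPM to 78.7 and 74.5 CPM. Tdgf1, which encodes the NODAL co-receptor Cripto, had the deepest core fall, from 480 and 513 CPM to 32.3 and 26.97 CPM. Both late libraries lay below both early libraries for 11 of the 12 genes, a count without a share over all genes beside it.

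Lin28a and Sall4 were the core genes that were not called. Lin28a, which encodes a translation regulator that blocks let-7 maturation, was at 389 and 387 CPM early and at 385 and 388 CPM late, so its libraries overlapped (log2 fold change -0.01, adjusted p = 0.90 by edgeR). Sall4, a zinc finger factor that also acts in mesoderm and germ cells, was at 188 and 185 CPM early and at 137 and 131 CPM late, a lower late level that stayed under the fold threshold.

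Naive genes fell further. Of 12 naive genes, 11 fell and 0 rose, with a median log2 fold change of -3.79, and the 11 kept a median of 6.95% of the early level. Esrrb (ENSMUSG00000021255, chr12:86407887-86568409), an orphan nuclear receptor of the naive network, was at 540 and 515 CPM in the early libraries and at 31.9 and 33.9 CPM in the late libraries. Nr0b1 (DAX1), a repressor bound to OCT4 in ESCs, dropped 24.8-fold from 127 and 121 CPM to 5.55 and 4.44 CPM. Tfcp2l1, a LIF and WNT target that sustains self-renewal, dropped 20.8-fold from 260 and 263 CPM to 13.5 and 11.6 CPM. None of these groups overlapped. Klf4 had the smallest called fall, from 44.5 and 46.4 CPM to 10.99 and 12.9 CPM. Tbx3, which is also used in endoderm and limb mesoderm, was not called, at 72.4 and 75.5 CPM early and 46.97 and 47.12 CPM late.

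Early gastruloids themselves were placed between naive ESCs and EpiLCs in the naive program. All 12 naive genes were lower in early gastruloids than in naive ESCs, at a median of 42.6% of the naive level, and 11 lay between the naive and EpiLC means. The exception was Fgf4. Summed over the list, the naive genes were at 4864 and 4981 CPM in naive ESCs, at 442 and 444 CPM in EpiLCs, at 2093 and 2090 CPM in early gastruloids and at 200.05 and 198.98 CPM in late gastruloids. Esrrb was lower in early gastruloids than in naive ESCs by a log2 fold change of -1.09 and higher than in EpiLCs by 4.96, with adjusted p of 3.78e-25 and 9.97e-47 by edgeR. The late sums lay below the EpiLC sums, although 6 of the 12 genes were at a higher mean in late gastruloids than in EpiLCs.

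The formative and primed genes split. Of 12, 7 fell and 2 rose, with a median log2 fold change of -1.35. Dnmt3l, the cofactor of the de novo methyltransferases, fell from 312 and 318 CPM to 21.2 and 24.2 CPM, and Dnmt3b from 576 and 580 CPM to 181 and 181 CPM. Otx2, a homeobox factor of the formative epiblast and forebrain, fell from 131 and 143 CPM to 25.7 and 23.9 CPM. Fgf5, a growth factor of the primed epiblast, was not called at 30.5 and 31.96 CPM early and 20.5 and 25.6 CPM late. Sox4 and Sall2, which are also expressed in differentiating mesenchyme and neural tissue, rose; Sox4 went from 19.1 and 22.2 CPM to 386 and 382 CPM. Pou3f1 (OCT6), at 23.2 and 20.8 CPM early and 10.8 and 10.52 CPM late, was called lower, but not without early replicate 1 (log2 fold change -0.96).

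**Figure D2:**
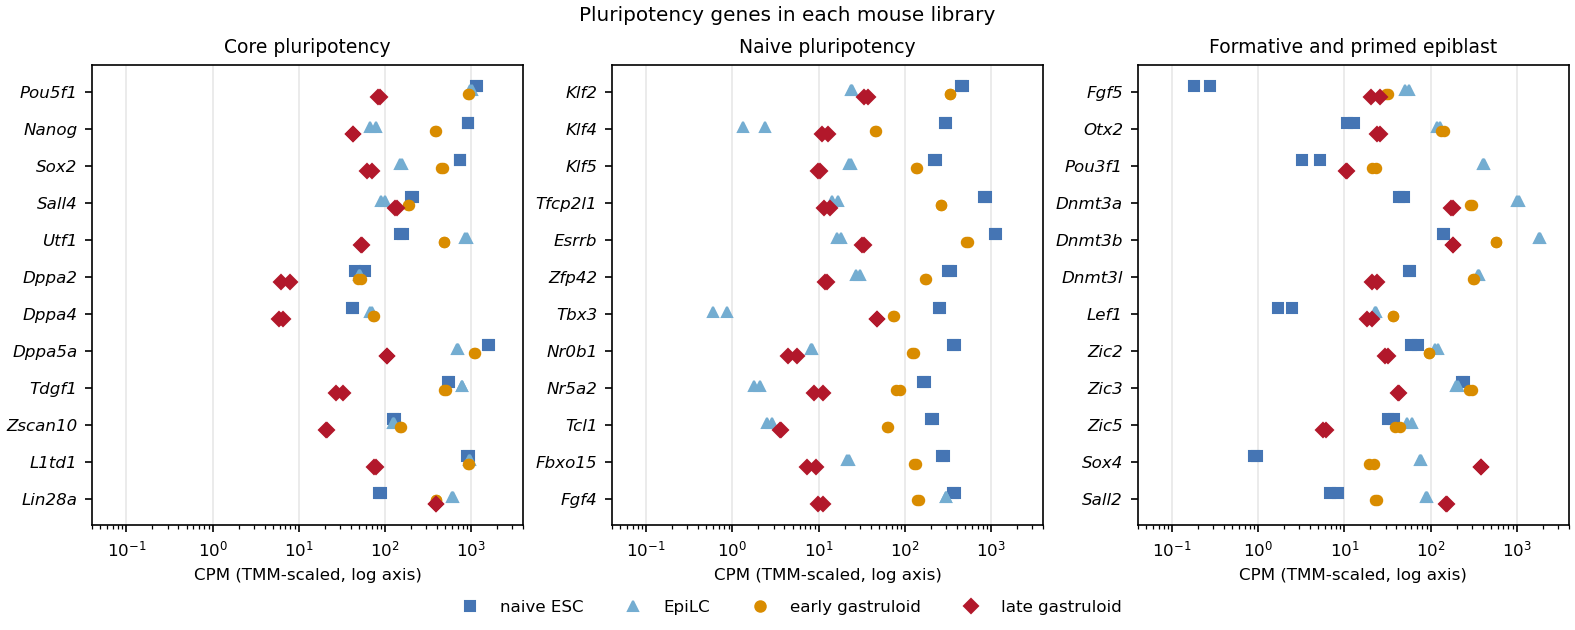
CPM (TMM-scaled, log axis) of the core, naive and formative pluripotency genes in each of the 8 mouse libraries, 1 symbol per library. Late gastruloids (red diamonds) lie below early gastruloids (orange circles) in 11 of 12 core and 12 of 12 naive genes, and early gastruloids lie between naive ESCs and EpiLCs in 11 of 12 naive genes.

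The start regions of Pou5f1 and Nanog are shown because these are the genes whose loss defines exit from pluripotency, and because the window of Nanog holds the element that POU5F1 and SOX2 are known to bind together. The 250 bases before the start of the canonical transcript were read 5′ to 3′ from GRCm39, at chr17:35816539-35816788 (plus strand) for Pou5f1 and chr6:122684237-122684486 (plus strand) for Nanog. Capitals mark a POU part (TTTGCAT), 1 base and a SOX part (ACAATG), a search written after the Nanog window had been seen.
Pou5f1: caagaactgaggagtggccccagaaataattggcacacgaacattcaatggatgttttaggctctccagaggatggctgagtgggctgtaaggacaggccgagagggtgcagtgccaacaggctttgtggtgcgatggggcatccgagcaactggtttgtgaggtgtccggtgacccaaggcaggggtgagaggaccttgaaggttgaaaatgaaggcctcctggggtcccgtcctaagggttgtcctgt
Nanog: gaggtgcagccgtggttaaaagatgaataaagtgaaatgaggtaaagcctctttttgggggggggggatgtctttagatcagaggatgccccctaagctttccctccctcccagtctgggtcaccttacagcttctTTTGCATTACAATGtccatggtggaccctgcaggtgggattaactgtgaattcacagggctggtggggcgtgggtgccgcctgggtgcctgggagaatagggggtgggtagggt
This composite began 114 bases before the start and occurred in 1 of 13820 windows, that of Nanog. Because the search was written after that window was seen, its match was certain beforehand. Nanog (ENSMUSG00000012396) itself fell to 10.9% of its early level. Shorter motifs were counted on both strands in windows of 300 bases (250 before and 50 after the start). The octamer ATTTGCAT was in 1.79% of windows of genes called lower, 1.68% of genes called higher and 1.38% of all windows. The T-box motif TCACACCT was in 1.44%, 0.874% and 0.803% of windows (37, 25 and 111 windows), and the CDX motif TTTATNG was in 8.55%, 7.55% and 7.88%. The windows of Pou5f1, Hoxb1 and Rarb held none of these letters. A match is a description of the letters only.

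Primitive streak genes were mostly lower in the late stage. Of 13 tested streak and nascent mesoderm genes, 8 fell and 3 rose. T, the Brachyury gene that marks streak and tail bud, fell by 4.06 on the log2 scale and retained 6.03% of the early level. It was in the other mouse groups between 0.864 and 3.34 CPM, and early gastruloids were higher than naive ESCs by a log2 fold change of 6.10 and than EpiLCs by 7.29. Nodal, the TGF-beta ligand that induces the streak, was at 241 and 264 CPM early and at 20.9 and 24.9 CPM late. Its feedback inhibitor Lefty2 fell furthest in the list, from 319 and 331 CPM to 8.33 and 9.93 CPM, a log2 fold change of -5.17 ± 0.08 with an adjusted p of 1.24e-44 by edgeR. In neither gene did the stages overlap. Lefty2 was already higher in naive ESCs, at 732 and 755 CPM, than in early gastruloids (log2 fold change of early over naive -1.19, adjusted p = 2.56e-26 by edgeR).

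Eomes and Fgf8 did not follow the other streak genes. Eomes, a T-box factor of streak, endoderm and trophoblast, was at 32.2 and 33.3 CPM early and at 31.2 and 33.9 CPM late, with overlapping libraries. Fgf8, which is expressed in streak and tail bud, was at 20.2 and 21.2 CPM early and at 18.3 and 18.5 CPM late (log2 fold change -0.17, adjusted p = 0.24 by edgeR). Among the list's rises, Lhx1, a LIM homeobox factor of node, head mesoderm and kidney, went from 1.67 and 1.40 CPM to 39.1 and 35.3 CPM. The endoderm antagonist gene Cer1 went from 0.0983 and 0.263 CPM to 4.17 and 4.30 CPM.

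The caudal list moved in both directions, with 4 of 8 tested genes higher and 4 lower. Cdx1, a homeobox gene induced directly by WNT, was at 16.8 and 17.9 CPM early and at 0.694 and 0.593 CPM late. Cdx2, its paralogue of the tail bud and hindgut, was at 4.57 and 4.99 CPM early and at 10.9 and 11.4 CPM late. Nkx1-2, a marker of neuromesodermal progenitors, fell from 21.3 and 20.4 CPM to 2.43 and 1.19 CPM. The paralogues Cdx1 and Cdx2 therefore moved in opposite directions without overlap. Wnt5a, a ligand of axis elongation, rose from 1.72 and 1.66 CPM to 77.2 and 76.6 CPM, and Gdf11, a trunk-to-tail signal, from 2.46 and 2.36 CPM to 44.3 and 43.1 CPM. Wnt3a, at 1.28 and 0.701 CPM early, had 1 count in the late libraries together and was not tested. The call of Fgf17 was lost without early replicate 2 (adjusted p = 0.0612 by edgeR) and without late replicate 1 (adjusted p = 0.301).

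Presomitic mesoderm and the segmentation clock were sparsely represented. Of 12 genes, 7 were tested, 2 rose and 2 fell. Dll3, a Notch ligand of the presomitic mesoderm, was at 19.4 and 16.7 CPM early and at 3.93 and 3.56 CPM late, and Ripply1, which closes the segmentation program, was at 4.92 and 4.12 CPM early and at 0.347 and 0.741 CPM late. Hes7, the clock oscillator, and Ripply2 were at or under 3 counts in every gastruloid library. The rises, Rspo3 and Dkk1, belong to WNT signalling and are not particular to this tissue.

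Derivatives of mesoderm carried many of the gains. Of 13 tested somite and paraxial mesoderm genes, 12 rose and 1 fell, at a median log2 fold change of 4.32, or 4.02 with Nkx3-2, at 0 early, set at its lower bound. Members near 0 early, such as Meox1 and Nkx3-2, passed the count minimum through the late libraries and could only rise. Meox1 (ENSMUSG00000001493, chr11:101768336-101785227), a homeobox gene of the somite, had 2 and 1 counts in the early libraries and 1199 and 908 counts in the late libraries, which is 0.0983 and 0.0876 against 139 and 135 CPM. The ratio of the summed counts was 1449-fold (exact 95% interval 495 to 7033, counting error only). Foxc2, a forkhead gene of paraxial mesoderm and vessels, went from 0.295 and 0.175 CPM to 68.8 and 77.8 CPM, and Twist1, a mesenchymal bHLH factor, from 8.26 and 8.58 CPM to 238 and 254 CPM.

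Genes of later somite steps had few counts. The sclerotome genes Pax1 and Pax9 reached 1.39 and 2.22 CPM and 2.78 and 2.67 CPM in the late libraries. Uncx, a gene of the posterior part of each somite, and Myf5, the earliest myogenic factor, did not pass the count minimum, and Myf5 was at 0.116 and 0.148 CPM in late gastruloids. Tcf15 (Paraxis) was the list's fall, from 31.5 and 31.4 CPM to 11.7 and 12.4 CPM; this gene is also expressed in ESCs that are primed to differentiate.

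Lateral plate genes rose as widely. Of 14 intermediate and lateral plate genes, 12 rose and 2 fell, with a median log2 fold change of 5.17. Osr1, a zinc finger gene of intermediate mesoderm, had 0 counts in both early libraries and 48.6 and 50.5 CPM in the late libraries, at least 242-fold higher. Hand2, a bHLH gene of lateral plate and heart, had 1 and 0 counts early and 826 and 715 counts late. Prrx1, a limb and craniofacial mesenchyme gene, went from 0.246 and 0.263 CPM to 103 and 98.5 CPM, and Foxf1, of the splanchnic layer, reached 80.9 and 80.6 CPM from 0.147 and 0 CPM. In these genes both late libraries were high and both early libraries were near 0. The falls were Tbx4 and Pax8, both low; Pax8 was at 1.08 and 1.05 CPM early and at 0.231 and 0.444 CPM late, and its call was lost with DESeq2 and without early replicate 1 or late replicate 1.

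All 14 cardiac genes were tested and rose, with log2 fold changes between 1.23 and 8.15. Gata6, a zinc finger factor of cardiac mesoderm and endoderm, went from 0.836 and 0.438 CPM to 176 and 172 CPM, a log2 fold change of 7.95 ± 0.15 with an adjusted p of 3.45e-42 by edgeR. Tnnt2, the cardiac troponin T gene, was at 0.147 and 0.175 CPM early and at 47.9 and 48.2 CPM late. Myosin genes moved less: Myh6 was at 2.31 and 1.66 CPM early and at 6.25 and 7.70 CPM late, and Myl7 at 2.56 and 2.19 CPM early and at 5.32 and 6.075 CPM late. Nkx2-5, the cardiac homeobox gene, reached 5.32 and 6.67 CPM and Tbx5 reached 3.36 and 3.11 CPM from 0 counts, at least 15.8-fold higher.

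In the combined endothelial and blood list, 12 of 15 tested genes rose and 1 fell, 4 of the rises being blood genes. Kdr, the VEGF receptor of blood vessel and lateral plate progenitors, went from 0.983 and 0.876 CPM to 133 and 129 CPM. Cdh5 (VE-cadherin), a defining endothelial gene, had 2 and 0 counts early and was at 45.2 and 50.7 CPM late. Pecam1, an endothelial adhesion gene that ESCs also express, fell from 127 and 124 CPM to 29.04 and 30.1 CPM. The blood progenitor factors Tal1, Lmo2 and Runx1 rose, Lmo2 from 4.33 and 3.59 CPM to 11.3 and 8.89 CPM and Runx1 from 0.737 and 0.350 CPM to 4.63 and 3.41 CPM. Gata1 and Klf1, of the erythroid lineage, were at 1 count or 0 in the late libraries and were not tested. The embryonic globin Hbb-bh1 rose from 0 counts to 1.04 and 3.56 CPM, with a wide gap between the late libraries, and its call was lost with DESeq2.

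Gut endoderm genes were among those that rose from near 0. Of 15 definitive endoderm and gut genes, 11 rose and 1 fell, with a median log2 fold change of 2.83. Sox17, an HMG factor of definitive endoderm and endothelium, went from 0.393 and 0.438 CPM to 27.2 and 28.2 CPM. The pioneer factor Foxa1 went from 0.197 and 0.438 CPM to 34.6 and 37.9 CPM. Spink1, a trypsin inhibitor expressed in gut endoderm, had 0 counts in both early libraries and was at 85.0 and 88.5 CPM late, at least 423-fold higher. Epcam, an epithelial adhesion gene shared by ESCs and endoderm, fell from 284 and 283 CPM to 97.4 and 94.2 CPM. Hnf4a was not called, at 11.4 and 11.996 CPM early and 6.13 and 7.56 CPM late.

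Of 7 notochord genes, 5 rose and 1 fell. Shh, the ventralizing ligand of notochord, floor plate and gut, had 1 and 0 counts early and was at 19.6 and 19.1 CPM late. Its receptor Ptch1, which is also a transcriptional target of the pathway, rose from 89.3 and 94.3 CPM to 243 and 217 CPM. Foxj1, the regulator of motile cilia, fell from 14.9 and 15.9 CPM to 5.32 and 4.74 CPM. Chrd, a BMP antagonist, was not called, with early values of 3.88 and 3.59 CPM inside the late values of 2.66 and 4.89 CPM.

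Some neural genes also rose, several of them from few counts. Of 16 neural progenitor and neural tube genes, 10 were tested, 7 rose and 1, Nkx6-2, fell. The neural tube genes Pax7, Olig2, Dbx1, Dbx2, Hes5 and Fabp7 did not pass the count minimum. Sox1, an early neural plate gene, was at 0.393 and 0.263 CPM early and at 2.43 and 2.67 CPM late. Pax3, of dorsal neural tube and somite, had 1 and 0 counts early and was at 2.89 and 3.26 CPM late, and Nkx6-1, of the ventral neural tube, was at 0.442 and 0.263 CPM early and at 6.36 and 5.48 CPM late. Irx3 rose from 1.38 and 2.36 CPM to 129 and 140.5 CPM, and Ptn from 3.10 and 2.54 CPM to 116 and 124 CPM, both of which are also expressed in mesoderm. Sox2, the SOXB1 gene shared by pluripotent and neural cells, fell to 14.5% of its early level, and Sox3, its paralogue, was not called at 13.6 and 14.5 CPM early and 7.64 and 8.45 CPM late. Nes, the intermediate filament gene of neural progenitors, overlapped between stages at 66.1 and 68.04 CPM early and 65.4 and 68.2 CPM late.

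Neuronal differentiation genes went both ways, with 5 of 10 tested higher and 3 lower. The proneural genes Neurog1 and Neurog2 had at most 1 count in each gastruloid library. Stmn2, a microtubule regulator of growing axons, was high early and fell from 124 and 121 CPM to 6.02 and 5.04 CPM. Ebf2 rose from 0.147 and 0.350 CPM to 10.1 and 8.30 CPM, and Ncam1, a neural adhesion molecule also present in mesoderm, from 12.98 and 10.2 CPM to 57.4 and 54.2 CPM. The rise of Elavl4, at 0.688 and 0.876 CPM early and 1.97 and 2.07 CPM late, was lost with DESeq2 and without early replicate 1.

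Neural crest genes showed no common direction, and defining genes were near 0. Of 13 listed genes, 8 were tested, 3 rose and 3 fell. Sox10, which defines migrating crest, was at 0.492 and 0.525 CPM early and at 0.579 and 0.444 CPM late, and Tfap2a was at 1.72 and 1.49 CPM early and at 0.926 and 0.889 CPM late. The rises were Sox9, Snai2 and Ets1, which are also genes of cartilage precursors, mesenchyme and endothelium. Foxd3, a crest factor that ESCs also use, fell from 15.5 and 16.2 CPM to 1.16 and 2.37 CPM. In the anterior neural list, 5 of 12 genes were tested, 3 rose and 1 fell. Six3, a forebrain gene, had 1 count in the late libraries together. The rise of Hesx1, to 1.85 and 1.93 CPM, was lost without early replicate 1.

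**Figure D3:**
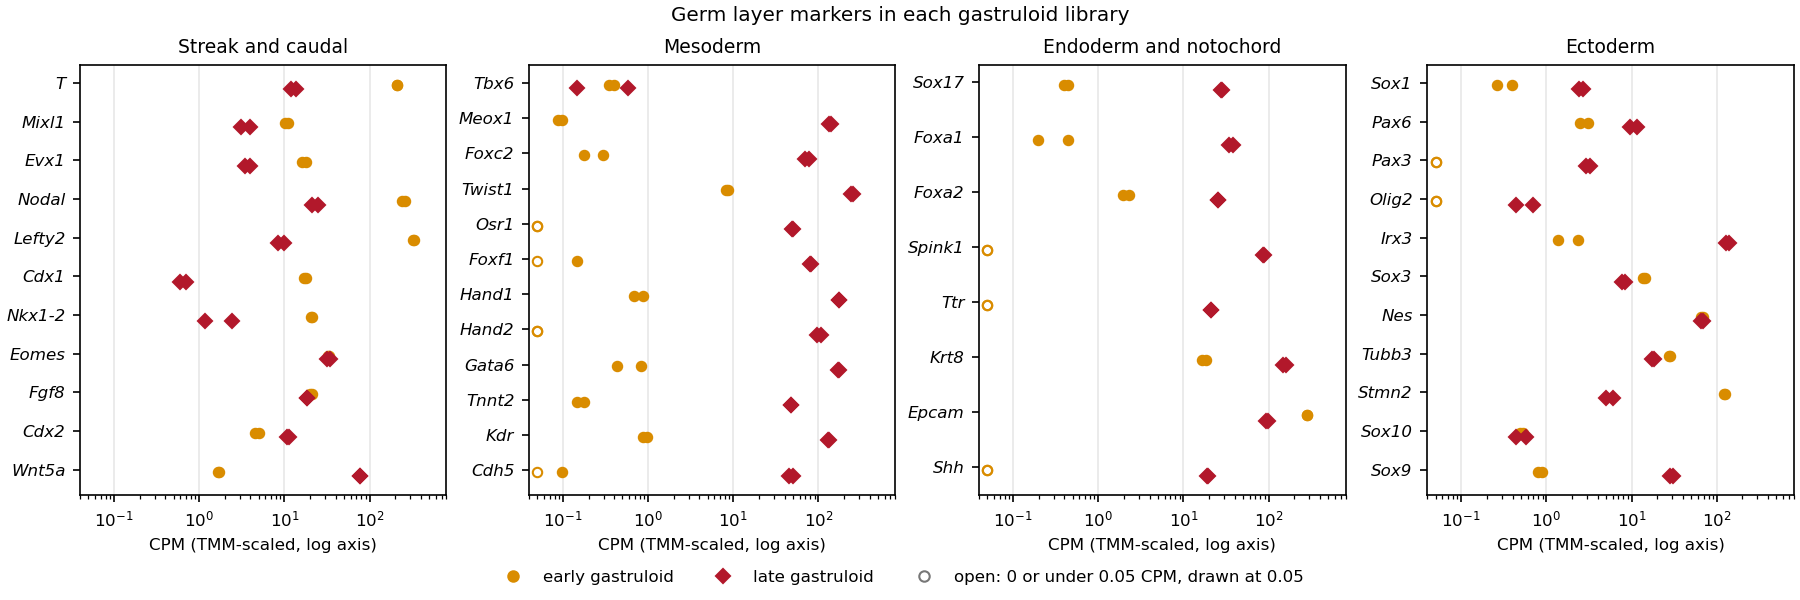
CPM (TMM-scaled, log axis) of streak, mesoderm, endoderm and ectoderm genes in the 2 early (orange circles) and 2 late (red diamonds) gastruloid libraries, with open symbols at 0 or under 0.05 CPM. T, Nodal and Lefty2 are lower late, whereas Meox1, Hand2, Kdr, Sox17 and Spink1 rise from near 0; Eomes, Nes, Tbx6 and Sox10 overlap or nearly overlap between stages.

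Markers of other cell types that aggregates could hold were measured beside these lists. Of 10 primordial germ cell genes, 8 fell and 2 rose; their summed level was 325 and 330 CPM early and 376 and 380 CPM late, the rises being Prdm1 (BLIMP1), from 55.3 and 58.8 CPM to 243 and 247 CPM, and Kit, neither of which is restricted to germ cells. The listed genes Nanos3 (4.47 and 4.203 CPM early, 1.504 and 1.48 CPM late) and Dppa3 (38.6 and 38.9 CPM early, 12.5 and 12.3 CPM late) fell. The germ cell list summed to 555.4 and 549.5 CPM in naive ESCs and to 106.9 and 106.0 CPM in EpiLCs. Whether these falls belong to germ cells was not tested. Of 9 tested visceral endoderm genes, 7 rose and 1 fell, with a summed level of 179 and 177 CPM early and 266 and 255 CPM late. Ttr, the transthyretin gene, had 0 counts early and was at 21.06 and 21.04 CPM late, at least 103-fold higher, whereas Afp reached 0.347 and 1.63 CPM and was not tested. Many of these genes are shared with definitive gut, and their part in the endoderm gains was not tested. Of 9 tested trophoblast genes, 4 rose and 3 fell; Elf5, the defining gene, was at 0.463 and 0.296 CPM late and at 0 early. Of the 5 two-cell-like genes in the table, 1 had a single count in 1 early library and the rest had 0 counts in all 4 libraries.

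HOX genes rose in all 4 clusters. Of the 39 HOX genes, 28 passed the count minimum, 27 of these rose and 1 fell, and 9 of those that rose had 0 counts in both early libraries. The median log2 fold change was 6.65, or 4.85 with the genes at 0 set at their lower bounds. Summed over all 39 genes, the level per kilobase was 5.35 FPKM (CPM per kilobase of gene length) early and 123 FPKM late. Over all 39 genes, tested or not, both late libraries exceeded both early libraries for 33, lay below them for 3 and overlapped for 3. The matching shares over all genes were not computed.

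The late HOX level differed along the clusters, whose 3′ genes are expressed first and most anteriorly in the embryo. Summed over the 4 clusters, paralogues 1 to 5 were at 91.4 FPKM late, paralogues 6 to 9 at 28.7 FPKM and paralogues 10 to 13 at 3.15 FPKM. The order was not shared by all clusters, and the sums cover unequal numbers of genes. In Hoxa and Hoxb, paralogues 1 to 5 were at 40.7 and 45.4 FPKM against 1.64 and 13.2 FPKM for paralogues 6 to 9. In Hoxc the same sums were close, at 3.15 FPKM over 2 genes and 2.75 FPKM over 3 genes, so the level per gene was higher in paralogues 1 to 5. In Hoxd they went the other way, at 2.20 FPKM for paralogues 1 to 5 and 11.03 FPKM for paralogues 6 to 9, with Hoxd9 at 7.91 FPKM and Hoxd1 at 1.86 FPKM. By cluster, the late sums were 44.3 FPKM for Hoxa, 58.7 FPKM for Hoxb, 6.38 FPKM for Hoxc and 13.97 FPKM for Hoxd. Hoxb4 (ENSMUSG00000038692, chr11:96209093-96212464) had the highest late level per length, 29.1 FPKM. It was at 0.295 and 0.613 CPM early and at 74.7 and 74.5 CPM late, a log2 fold change of 7.47 ± 0.19 with an adjusted p of 3.89e-36 by edgeR. Hoxa5 had 0 counts early and 21.98 and 16.002 CPM late, at least 92.6-fold higher.

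Among the genes already present early were Hoxb1, at 2.75 and 2.54 CPM, and Hoxb9, at 1.92 and 1.66 CPM. Their log2 fold changes, 2.03 and 1.98, were the smallest among the HOX genes that rose. Hoxc13, a 5′ gene, fell from 3.20 and 3.77 CPM to 0.231 and 0.444 CPM. Hoxa9, Hoxa10 and Hoxc9 rose from 0 to low levels, of which Hoxa10 reached 1.74 and 2.07 CPM, and these 3 calls were lost with DESeq2. HOX genes of a cluster overlap antisense transcripts, and the counting did not use strand.

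The partners of HOX proteins rose with them. Of 10 cofactors and posterior patterning regulators, 8 rose and 0 fell. Meis1, a TALE homeobox gene, went from 0.295 and 0.438 CPM to 108 and 103 CPM, and Meis2 from 5.85 and 7.18 CPM to 367 and 386 CPM. Nr6a1 (GCNF), a nuclear receptor of trunk development, was not called at 96.9 and 103 CPM early and 113 and 109 CPM late.

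**Figure D4:**
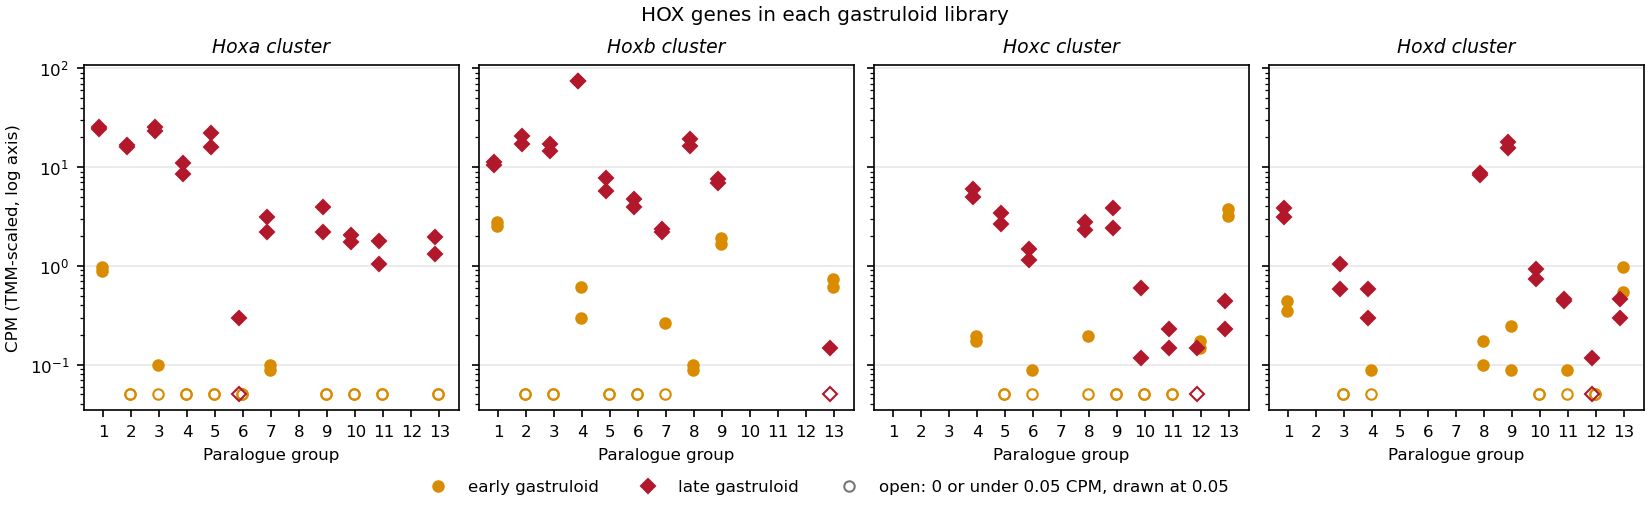
CPM (TMM-scaled, log axis) of the 39 HOX genes by cluster and paralogue group in the 2 early (orange circles) and 2 late (red diamonds) gastruloid libraries, with open symbols at 0 or under 0.05 CPM. Late symbols lie above early ones for 33 genes, and Hoxc13 is the HOX gene called lower.

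Retinoic acid, the vitamin A derivative that patterns trunk mesoderm and neural tube, had higher expression of most of its tested synthesis, transport and breakdown genes in the late stage, although no retinoic acid step was described for mouse gastruloids. Of 16 tested genes, 12 rose and 2 fell, with a median log2 fold change of 3.69. Aldh1a2, the synthesis enzyme of embryonic mesoderm, was at 3.49 and 4.82 CPM early and at 150 and 138 CPM late, a log2 fold change of 5.17 ± 0.11 with an adjusted p of 2.65e-39 by edgeR. Rdh10, which makes the retinaldehyde substrate, went from 7.13 and 6.65 CPM to 180 and 169 CPM. Cyp26a1, which degrades retinoic acid and is itself induced by it, went from 0.246 and 0.0876 CPM to 29.4 and 27.4 CPM.

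The receptor genes moved in different directions. Rarb, a receptor gene that is a direct retinoic acid target, had 0 counts in both early libraries and was at 17.01 and 17.6 CPM late, at least 84.5-fold higher. Rarg fell from 122 and 126 CPM to 33.1 and 30.4 CPM, and both late libraries lay below both early ones. Rara was at 42.7 and 40.6 CPM early and at 85.9 and 84.6 CPM late, close to the fold threshold, and was not called without early replicate 2 (log2 fold change 0.99). Rxra rose by a log2 fold change of 1.29, Rxrg, a low gene, fell, and Rxrb was not called at 61.9 and 59.9 CPM early and 68.4 and 73.5 CPM late.

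WNT genes divided into those that fell and those that rose. Of 19 tested genes, 7 fell and 9 rose. The ligand gene Wnt8a, of the streak, was at 59.8 and 65.2 CPM early and at 3.12 and 2.67 CPM late, and Wnt3 was at 29.4 and 31.8 CPM early and at 5.79 and 4.89 CPM late. Among feedback targets, Axin2 fell from 110 and 110 CPM to 28.1 and 24.0 CPM, Notum from 24.1 and 25.9 CPM to 1.39 and 1.04 CPM, and Sp5 from 56.2 and 60.3 CPM to 12.5 and 14.2 CPM. Nkd1, another feedback inhibitor, rose from 11.9 and 12.5 CPM to 57.5 and 60.2 CPM. Unlike Notum, which is also secreted, the inhibitor genes Dkk1, Sfrp1 and Sfrp5 rose: Dkk1 went from 1.52 and 1.31 CPM to 34.2 and 31.6 CPM, Sfrp1 from 54.1 and 54.1 CPM to 361 and 367 CPM, and Sfrp5 from 1 and 2 counts to 32.6 and 29.6 CPM. Early Axin2 was higher than in naive ESCs by a log2 fold change of 1.28 and than in EpiLCs by 4.23; naive ESCs were also kept with CHIR99021, a component of 2iLif. The call of Wnt7b, at 4.05 and 2.52 CPM late, was lost without late replicate 1.

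NODAL and BMP genes changed in opposite directions. Of 20 genes, 11 rose and 7 fell, with a median log2 fold change of 1.93. The falls were on the NODAL side, with Nodal, Lefty1, Lefty2, Tdgf1, Gdf3 and Foxh1, the last not called without late replicate 2 (log2 fold change -0.92), and included the inhibitor Smad7. Among BMP ligands, Bmp2 went from 0.639 and 0.525 CPM to 27.4 and 29.8 CPM and Bmp5 from 0.0983 and 0.525 CPM to 37.5 and 37.3 CPM, whereas Bmp7 was not called at 61.8 and 59.3 CPM early and 44.3 and 42.97 CPM late. The direct BMP targets rose, with Id1 going from 4.08 and 3.06 CPM to 126 and 126 CPM and Id2 from 1.28 and 2.28 CPM to 173 and 157 CPM. The antagonist Grem1, of limb and somite, had 1 and 0 counts early and was at 20.1 and 20.3 CPM late.

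FGF genes were close to the background. Of 18 tested genes, 4 rose and 3 fell, 22.2% and 16.7%. Fgf4, the ligand of ESCs, fell from 138 and 145 CPM to 11.1 and 9.78 CPM, and Fgf10, of lateral plate and limb mesenchyme, rose from 0.442 and 0.613 CPM to 32.2 and 36.004 CPM. The pathway targets Spry2, Dusp6 and Etv4 were not called; Etv4 was at 34.5 and 34.4 CPM early and at 34.9 and 34.7 CPM late. Etv5, which is also an ESC gene, fell from 373 and 368 CPM to 74.05 and 71.4 CPM. In the Notch list, 4 of 13 tested genes rose and 3 fell. The vascular target Hey1 rose from 4.87 and 5.17 CPM to 23.3 and 30.4 CPM, Jag2 fell from 50.15 and 49.1 CPM to 9.37 and 8.30 CPM, and the call of Notch2 (log2 fold change 1.05) was lost without late replicate 1.

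**Figure D5:**
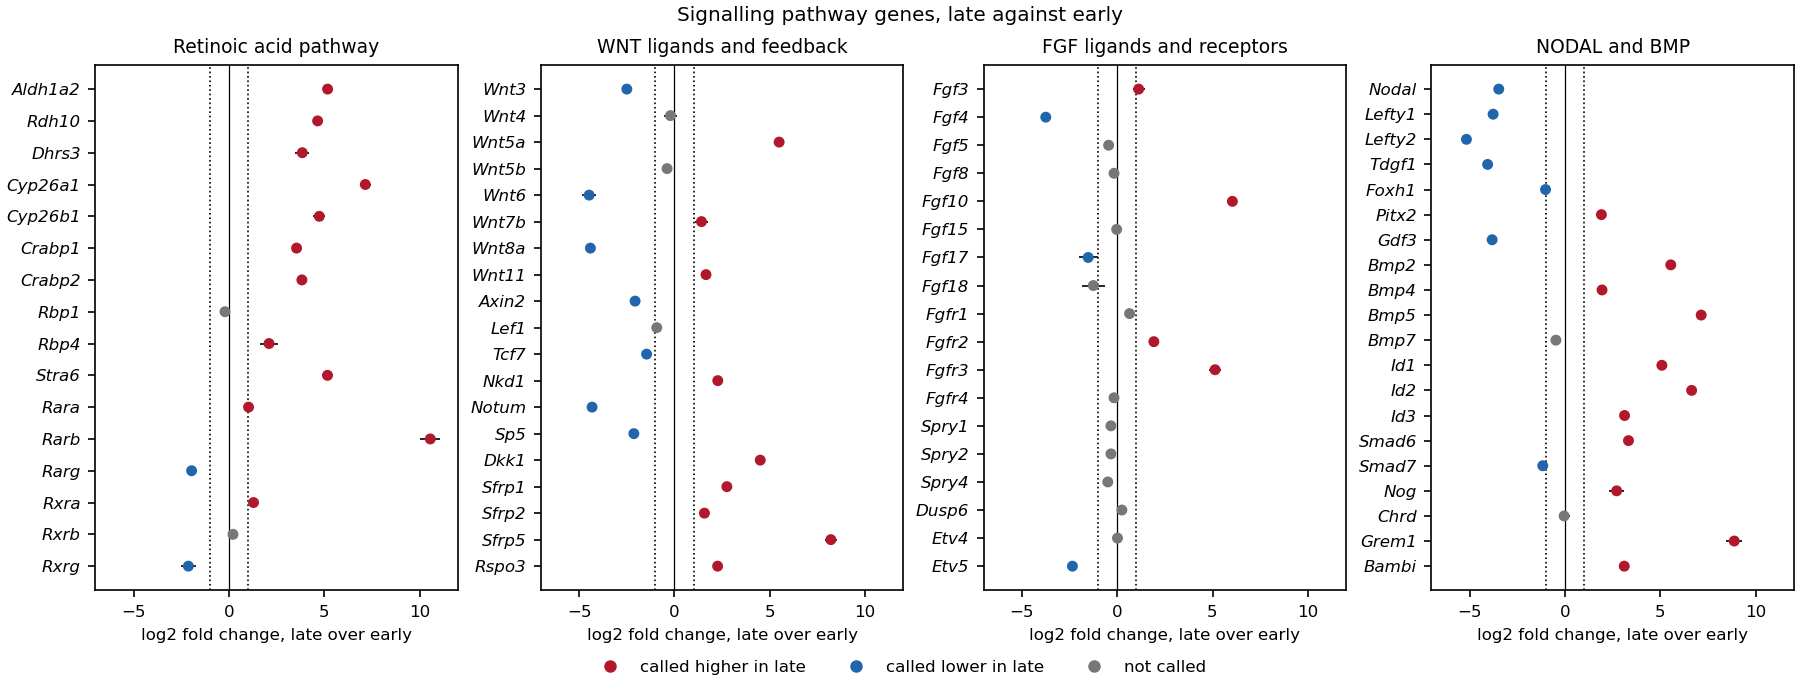
Log2 fold change of late over early gastruloids (points) with its standard error (bars) for tested genes of the retinoic acid, WNT, FGF and NODAL/BMP lists; dotted lines mark the fold threshold at 1 in either direction. Rarb had 0 early counts, so its point depends on the prior count, and 12 of 16 retinoic acid genes lie to the right of the threshold against 4 of 18 FGF genes.

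Cadherin genes moved in opposite directions, as did other genes of epithelium and mesenchyme. Of 18 genes of epithelial-mesenchymal transition, 7 rose and 6 fell. Cdh1 (E-cadherin) fell from 717 and 748 CPM to 170 and 167 CPM, while Cdh2 (N-cadherin) rose from 14.3 and 12.96 CPM to 240 and 242 CPM and Cdh11 (OB-cadherin) from 0.442 and 1.31 CPM to 213 and 208 CPM. The splicing factors of epithelia, Esrp1 and Esrp2, fell, and the repressors Snai2, Zeb1 and Zeb2 rose. Snai1 was not called at 12.7 and 11.6 CPM early and 21.1 and 21.2 CPM late. Cldn6 and Cldn7, tight junction genes, were not called, so the epithelial genes did not fall as a whole.

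Of 24 tested collagen and matrix genes, 23 rose and 0 fell, with a median log2 fold change of 4.54. Col3a1, a fibrillar collagen of mesenchyme, had 1 and 2 counts early and 2823 and 2427 counts late, a ratio of 3611-fold with an exact 95% interval of 1235 to 17510. Postn (periostin) had 0 counts early and was at 107 and 111.6 CPM late, at least 534-fold higher. The basement membrane collagen Col4a1 went from 17.99 and 17.8 CPM to 442 and 442 CPM. Col18a1, whose product carries endostatin, was not called at 1035 and 1034 CPM early and 566 and 578 CPM late. The smaller rises of Sparc (log2 fold change 1.02, 0.97 without early replicate 1) and Col6a2 (lost with DESeq2) depended on the setting.

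Imprinted genes rose in 17 of 22 cases and fell in 1. H19 (ENSMUSG00000000031, chr7:142129262-142133957), a maternally expressed long RNA of fetal tissue, was at 5.85 and 5.95 CPM early and at 2011 and 1978 CPM late. The stages were separated by a log2 fold change of 8.40 ± 0.08, with an adjusted p of 1.27e-55 by edgeR. Dlk1, a paternally expressed NOTCH-like ligand, went from 1.28 and 0.701 CPM to 445 and 455 CPM, and Nnat from 3.44 and 3.85 CPM to 682 and 694 CPM. Cdkn1c (p57), a growth-restraining CDK inhibitor, rose from 10.9 and 11.2 CPM to 161 and 176 CPM. Meg3 and Rian, long RNAs of the Dlk1 domain, rose less, by log2 fold changes of 1.45 and 1.4965, and Snrpn fell from 151 and 157 CPM to 61.9 and 60.5 CPM.

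Growth regulators of the LIN28 and MYC group had 5 of 11 genes higher and 0 lower. Hmga2, an architectural chromatin protein and let-7 target, went from 5.56 and 4.64 CPM to 474 and 434 CPM. Lin28b rose by a log2 fold change of 1.30 whereas its paralogue Lin28a was level between stages. Myc rose from 8.997 and 10.6 CPM to 53.8 and 50.5 CPM, and Mycn was not called at 233 and 233 CPM early and 123 and 136 CPM late. Of 17 cyclins, CDK inhibitors and proliferation markers, 3 rose and 1 fell, near or under the background. Ccnd2 rose from 49.6 and 52.5 CPM to 219 and 217 CPM, and the fall of Ccnd1 was lost with DESeq2 and without late replicate 1 (log2 fold change -0.96). The proliferation genes Mki67, Top2a and Pcna were not called, with log2 fold changes of 0.28, -0.13 and 0.24.

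Glycolysis genes were lower. Of 20, 10 fell and 1 rose, with a median log2 fold change of -1.03. Both late libraries lay below both early libraries for 18, and the share of all genes that did so was not computed. Pfkp, the platelet-type phosphofructokinase, fell from 228 and 221 CPM to 17.7 and 17.8 CPM, and Aldoa from 2751 and 2770 CPM to 837 and 843 CPM. The rise was Eno3, the muscle enolase, from 3.93 and 5.25 CPM to 86.7 and 85.05 CPM. Ldha, Pkm and Gapdh, at log2 fold changes of -0.85, -0.89 and -0.67, stayed under the fold threshold. The hypoxia list had 6 of 16 tested genes lower and 1 higher; Pdk1, the kinase that diverts pyruvate from mitochondria, fell from 306 and 317 CPM to 53.8 and 51.3 CPM, whereas Vegfa was not called at 29.2 and 26.4 CPM early and 47.2 and 46.2 CPM late. The fall of Kdm3a was lost with DESeq2 and without late replicate 2, and that of Eno2 without late replicate 1. Of 15 tested amino acid and stress response genes, 7 fell and 0 rose, among them Asns, the asparagine synthetase, from 701 and 724 CPM to 183 and 171 CPM.

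Nuclear genes of oxidative phosphorylation mostly stayed under the fold threshold. Of 74, 1 fell past the fold threshold and 0 rose, with a median log2 fold change of -0.18 against -0.0095 over all genes. Without the fold threshold, 37 were lower and 14 higher at an adjusted p under 0.05 by edgeR. Over all 14242 tested genes, 5590 were lower and 5593 higher by the same rule. The called gene was Ndufa1, a complex I subunit, at 125 and 125 CPM early and 51.3 and 56.9 CPM late. Among 7 tested protein-coding genes of the mitochondrial genome, 0 were called by edgeR or by DESeq2, and 7 had an unadjusted p under 0.05. Most tested genes passed even the adjusted p alone, so such p-values were common in these data. Among the 7, mt-Co1 was lower late (log2 fold change -0.55) and mt-Cytb higher (0.43). Mt-Co2 and mt-Co3 had at most 1 count per gastruloid library. Reads that align to several places are not counted by default, and their part in these counts was not tested.

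Among chromatin regulators, Tet1, the dioxygenase of pluripotent cells, fell from 319 and 280 CPM to 63.98 and 52.2 CPM while its paralogue Tet3 rose from 19.4 and 17.2 CPM to 90.2 and 84.7 CPM. Of 10 polycomb repressive complex 2 genes, 6 fell and 0 rose. The core subunit genes Suz12, from 294 and 305 CPM to 117 and 100.8 CPM, and Eed, from 162 and 172 CPM to 70.5 and 71.3 CPM, fell. Ezh2, the catalytic subunit, went the other way without passing the fold threshold, at 165 and 160 CPM early and 281 and 298 CPM late, and the fall of its paralogue Ezh1 was lost without late replicate 2.

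The largest rises over all genes, among called genes of at least 10 CPM with more than 3 early counts in 1 library, were in Nr2f1, Igf2, Tnc, Cd248, Dlk1, Prrx1, H19, Nr2f2, Meis1, Frem1, Foxc2, Cdh11, Adgra2, Tgfb2 and Gata6, at log2 fold changes between 7.95 and 9.28. Cd248 (endosialin), of pericytes and stromal cells, went from 0.147 and 0.350 CPM to 101.6 and 97.5 CPM, and Tgfb2, a growth factor of mesenchyme and heart, from 0.688 and 0.876 CPM to 194 and 187 CPM. The largest falls by the same rule were in Dnah8, Pnma6e, Anxa8, Plxdc1, Laptm5, Cnga3, Myh13, Cpt1a, Acsbg3, Lefty2, Slc12a8, 1700097N02Rik, Lama3, Gstp2 and Slc5a1, between -6.68 and -4.87. Laptm5, a lysosomal protein best known from blood cells, went from 170 and 176 CPM to 3.47 and 4.74 CPM, and Cpt1a, the gate enzyme of mitochondrial fatty acid oxidation, from 123 and 117 CPM to 3.36 and 2.67 CPM. Lama3, a laminin chain of epithelial basement membrane, fell from 50.7 and 53.7 CPM to 1.39 and 1.63 CPM.

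By level per length, the largest gain was in Mdk (midkine), a heparin-binding growth factor of mid-gestation, from 94.5 to 1558 FPKM. H19, Marcksl1, Nnat, Mest, Gpc3, Serpinh1 and mt-Rnr1 followed among genes that did not overlap between stages. Rn18s-rs5 and Mir6236, which carry ribosomal RNA sequence, were also called higher by edgeR, but their libraries overlapped and the calls rested on late replicate 2. Rn18s-rs5 was at 1512 and 1180 CPM early and at 880 and 5659 CPM late, and without late replicate 2 its log2 fold change was -0.62 and that of Mir6236 -0.53. The largest losses per length were in Dppa5a, from 1750 to 170 FPKM, and in Trh, Apoe, Aldoa, Slc25a5, Pou5f1, Mt1, Utf1, Cstb and Rps4l. Trh, the thyrotropin-releasing hormone precursor gene, fell from 1450 and 1426 CPM to 240 and 243 CPM. Its early level was above that of naive ESCs, at 280.4 and 279.9 CPM, and of EpiLCs, at 52.7 and 48.03 CPM. Apoe, the lipid carrier apolipoprotein E, fell from 1973 and 1964 CPM to 421 and 448 CPM.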

How the data were processed

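Polyadenylated RNA of 2 replicate libraries for each of 4 mouse groups was analysed. Per the paper's methods, the authors used Trimmomatic 0.39 for trimming, STAR for alignment (GRCm39) and featureCounts with default options, which ignore strand and drop multi-mapping reads, for gene counts. The deposited values are whole-number counts per gene, not normalized, beside a deposited gene length (another value, in bases) used for FPKM. The annotation release and each sample's read configuration are not given in the sources used here.

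Counts were scaled by TMM and tested with edgeR 4.0.16 (R 4.3.3; glmQLFit, glmQLFTest) in 1 fit of all 8 mouse libraries, late minus early, over 14242 genes kept by filterByExpr on the 4 gastruloid columns. Calls needed both a Benjamini-Hochberg adjusted p below 0.05 and a log2 fold change past 1 in either direction. CPM are TMM-scaled, and FPKM are CPM per kilobase. Folds against a group at 0 used a floor of 3 counts per library, and with 1 to 3 counts the ratio of summed counts has an exact 95% interval. On simulated counts over these 14242 genes, edgeR recovered 91 of 100 genes changed by 1.5 (log2) and 99 of 100 changed by 2.5, with 1 false call. The simulation changed only these genes, up and down equally, and reused the fitted dispersions. Its false-call count therefore does not carry over to these data, where far more genes were called.

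The members and the 39 gene lists (608 genes, 598 in the table, 536 tested) were chosen with earlier results of these data known. Genes named are list members, the 15 largest rises and 15 largest falls by log2 fold change among called genes (mean of 10 CPM or more where higher, over 3 counts in 1 or more libraries where lower, no overlap), and the 10 largest rises and falls in FPKM. Noto, Zscan4f, Gm4340, Dub1, Wnt1, Gdf1, mt-Nd3, mt-Nd4l, mt-Atp6 and mt-Atp8 were not analysed here. Gene positions are from GENCODE M39 (29486 of 29720 identifiers matched). Promoter windows were planned from RefSeq and were read from GRCm39 at GENCODE M39 starts instead, for 13820 tested genes; genes of 1 chromosome were not used here. Alternatives were DESeq2 1.42.0, other size factors, other count filters, only the 4 gastruloid libraries, a replicate block and leaving out each library. The human counts of the series, deposited in the same unit, were not used here. Most list members were counted with their lists without being named, and some genes are not reported here.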

Additional observations from a re-analysis of the deposited data

How the results depend on the processing

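The totals of 2973 genes higher and 2646 lower were 2896 and 2462 with DESeq2, 3062 and 2558 with DESeq2 size factors, 2900 and 2720 with upper quartile scaling, 3269 and 3253 without a filter, and 2957 and 2667 with the 4 gastruloid libraries alone. They were 5593 and 5590 with the adjusted p alone, 1526 and 1300 past a log2 fold change of 2, and 2001 and 1670 with at least 10 counts in each gastruloid library, a filter that removes genes at or near 0 at 1 stage. Leaving out each library gave 2879 to 2941 higher and 2587 to 2658 lower. A fit with the replicate number as a block gave 2969 and 2637, and the 567 named genes kept their calls. Same-numbered early and late libraries did not deviate together across genes (r = -0.0043). With 2 replicates per stage, such a value cannot show whether the replicate numbers pair the samples. Over all genes, the median change ranged from -0.088 to 0.031 over the settings.
With the 10-count filter, list members called higher were 4 for somite, 4 for lateral plate, 4 for cardiac, 5 for endothelial, 6 for endoderm, 3 for notochord, 4 for neural progenitor, 2 for neuronal, 2 for visceral endoderm, 2 for trophoblast, 6 for retinoic acid, 2 for FGF, 2 for Notch, 3 for HOX, 5 for HOX cofactor and 13 for matrix genes. Members called lower under that filter were 1 each for caudal, presomitic, neuronal and retinoic acid genes, 0 for lateral plate, neural progenitor, anterior neural and HOX genes, and 2 for nuclear oxidative phosphorylation genes. Members that failed the filter are missing from these counts. Of the 567 named genes, 421 passed it, 416 of these kept their call or lack of one, and 1 lost its call. DESeq2 gave 1 lateral plate gene and 0 cyclins lower, its size factors 0 cyclins lower, upper quartile scaling 2 nuclear oxidative phosphorylation genes lower, and no filter 3 endothelial, 2 anterior neural, 2 HOX and 2 nuclear oxidative phosphorylation genes lower and 5 anterior neural genes higher. Leaving out each library moved the genes called lower to between 1 and 2 for lateral plate, 0 and 1 for HOX cofactors and cyclins, and 1 and 2 for nuclear oxidative phosphorylation.
Of 567 named genes, DESeq2 lost 12 calls (Pax8, Hbb-bh1, Elavl4, Foxh1, Hoxa9, Hoxa10, Hoxc9, Col6a2, Ccnd1, Kdm3a, Rn18s-rs5 and Mir6236), and leaving out a library lost between 2 and 6. Without late replicate 2, Rn18s-rs5 and Mir6236 reversed, to log2 fold changes of -0.615 and -0.531, against highest values of 2.07 and 1.98 when late replicate 1 was left out. The causes were not tested. Depth limits genes under about 3 counts per library, and 2 replicates per stage from 1 batch limit what the p-values cover.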
